A study of Rattus norvegicus with 18 samples.

Results

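A set of 9 genes of the epithelial cell surface and its skeleton was followed in NRK-52E rat kidney cells exposed to the fungicide chlorothalonil. They are 4 tight junction genes (Tjp1, Ocln, F11r and Cgn), 2 desmosome genes (Jup and Pkp2), 2 keratins (Krt7 and Krt8) and Sprr1a, a gene of the cornified envelope. All 9 of 9 were found by symbol in the platform annotation, among 9149 genes tested, and each is read from a single-symbol probe set, chosen by the highest mean level over the 18 arrays. The first 8 were named as a group of junction and keratin genes. Sprr1a is taken to have been added for its change under treatment, so its levels are described without a test and it is left out of the counts below.

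Tight junctions seal neighbouring epithelial cells: membrane proteins such as occludin (Ocln) and JAM-A (F11r) meet across the gap, and the plaque proteins ZO-1 (Tjp1) and cingulin (Cgn) tie them to the actin skeleton. Desmosomes join cells mechanically, and their plaque proteins plakoglobin (Jup) and plakophilin 2 (Pkp2) link cadherins to keratin filaments, of which keratin 7 and keratin 8 are type II members in simple epithelia. Small proline-rich proteins such as that of Sprr1a are crosslinked into the tough envelope of squamous cells and are also known from injured tissue.

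NRK-52E is an established rat kidney line that the labels describe as epithelial cells of the proximal tubule, of Osborne-Mendel genotype. Confluent cells received 1.1 µM chlorothalonil dissolved in DMSO, or DMSO alone, and each of the 6 combinations of exposure and time (6, 24 and 72 h) has 3 arrays. The labels call the arrays biological replicates and the design speaks of 3 studies at each time, and the p-values measure the spread between these arrays. The values are log2 levels of total RNA from whole wells, so fewer cells of a kind and less RNA per cell cannot be told apart. A level of log2 4 or less is taken as background, and where all 3 arrays of a group lie there a fold is given only as a bound. The arrays of 1 group correlated at 0.992 to 0.998 over the 9149 genes tested. Treatment moved much of the array, with an adjusted p under 0.05 (limma, Benjamini-Hochberg over all genes) for 59.6% of genes at 6 h, 70.1% at 24 h and 64.3% at 72 h. The spike-in poly-A control probe sets, which report RNA added before labelling, were brighter in the chlorothalonil arrays (mean log2 10.5 to 11.2) than in the DMSO arrays (8.97 to 10.3). Scaling the arrays to them moves the median change of all genes to -0.62 at 6 h, -1.02 at 24 h and -0.60 at 72 h, against -0.01, 0.06 and 0.07 as deposited, and the directions below are relative to the deposited normalization. The 24 h shift rests in part on DMSO replicate 1, at 8.97 in these controls against 10.1 and 10.3 in the other 2, and without that array it was -0.59, a setting chosen after seeing the data. What that scaling does to a member's call is given in the member's own paragraph.

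As to identity, 19 of 22 proximal tubule markers on the array (among them Slc34a1, Lrp2 and Cubn) were never above background in any of the 18 arrays, nor were 16 of 17 epithelial identity genes, including Epcam and Cdh1 (E-cadherin). The detected tubule markers were Enpep (above background in 18 arrays), Ggt1 (15) and Aqp1 (3). Of the distal nephron and collecting duct markers 15 of 16 were never above background. The exception, Gata3, was above it in 18 arrays and changed by 0.91, 0.54 and 0.73 at 6, 24 and 72 h (0.30, -0.53 and 0.06 under poly-A scaling). The linear levels of the proximal tubule markers summed to 582 to 710 in chlorothalonil arrays and 652 to 672 in DMSO arrays at 6 h, 531 to 615 and 400.5 to 520 at 24 h, and 381 to 442 and 581 to 752 at 72 h. Of the endothelial markers 6 of 7 were never above background, and of the leukocyte markers 6 of 8. The leukocyte markers summed to 640.5 to 819 in chlorothalonil arrays and 49.6 to 58.6 in DMSO arrays at 72 h, almost all of it Cd68, a lysosomal protein (log2 9.45 and 3.91), while Ptprc and Itgam were at background. Fibroblast markers summed to 5688 to 6145 in chlorothalonil arrays and 4379 to 4534 in DMSO arrays at 6 h, 3050 to 3585 and 3324 to 3663 at 24 h, and 4733 to 5677 and 24833 to 27535 at 72 h, with 4 of 9 never above background. The part of these marker levels in the junction and keratin results was not tested.

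Of the 8 junction and keratin genes, 5 passed the test at 6 h (Ocln, F11r, Pkp2 and Krt7 higher, Tjp1 lower), a share of 62.5% against the 59.6% of all genes (27.8% higher, 31.8% lower). At 24 h 6 of 8 passed (Ocln and Krt8 higher, Tjp1, F11r, Cgn and Jup lower), 75% against 70.1% (39.1% higher, 31.1% lower). At 72 h 6 of 8 passed (Pkp2 higher, Tjp1, F11r, Cgn and Jup lower, and Krt7 with both groups at background), 75% against 64.3% (37.2% higher, 27.0% lower). The 2 groups did not overlap for 6, 5 and 6 of the 8 genes at 6, 24 and 72 h, beside 66.7%, 73.0% and 70.5% of all genes. Krt7 had passed the filter on low values through the treated arrays of 6 h, where it was high. Without it 4, 6 and 5 of 7 genes passed at the 3 times (57.1%, 85.7% and 71.4%), and 5 of 7 did not overlap at each time. The median log2 change of the 8 was 0.14, -0.14 and -0.03 at the 3 times, beside -0.01, 0.06 and 0.07 for all genes. Without Krt7 the median of the 7 was 0.10, -0.26 and -0.13. Tjp1, F11r, Cgn and Jup were lower with chlorothalonil at both later times, while Ocln was higher at 6 and 24 h, Pkp2 at 6 and 72 h and Krt8 at 24 h.

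**Figure D1:**
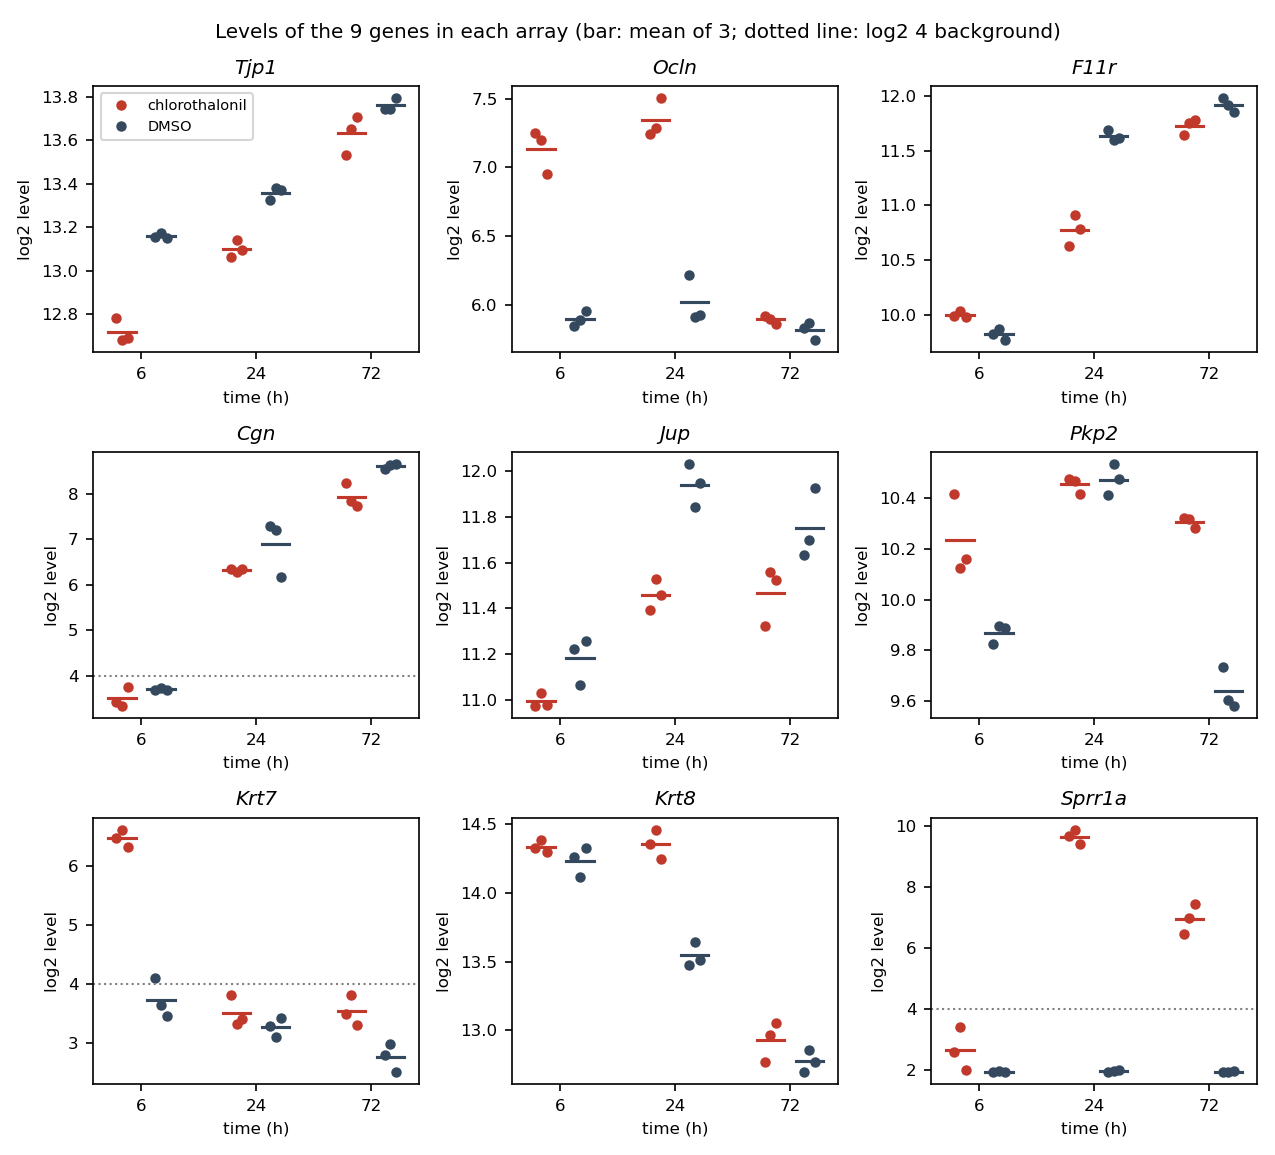
Log2 level (y axis) of each of the 9 genes in each array at 6, 24 and 72 h (x axis), with chlorothalonil arrays in red left of DMSO arrays in dark grey, a bar for the mean of 3 and a dotted line at the background of log2 4. F11r and Cgn climb with time in both arms and lie lower with chlorothalonil at 24 h on average, while Sprr1a leaves the background only in the chlorothalonil arrays of 24 h (9.39 to 9.86) and 72 h (6.46 to 7.43).

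**Figure D2:**
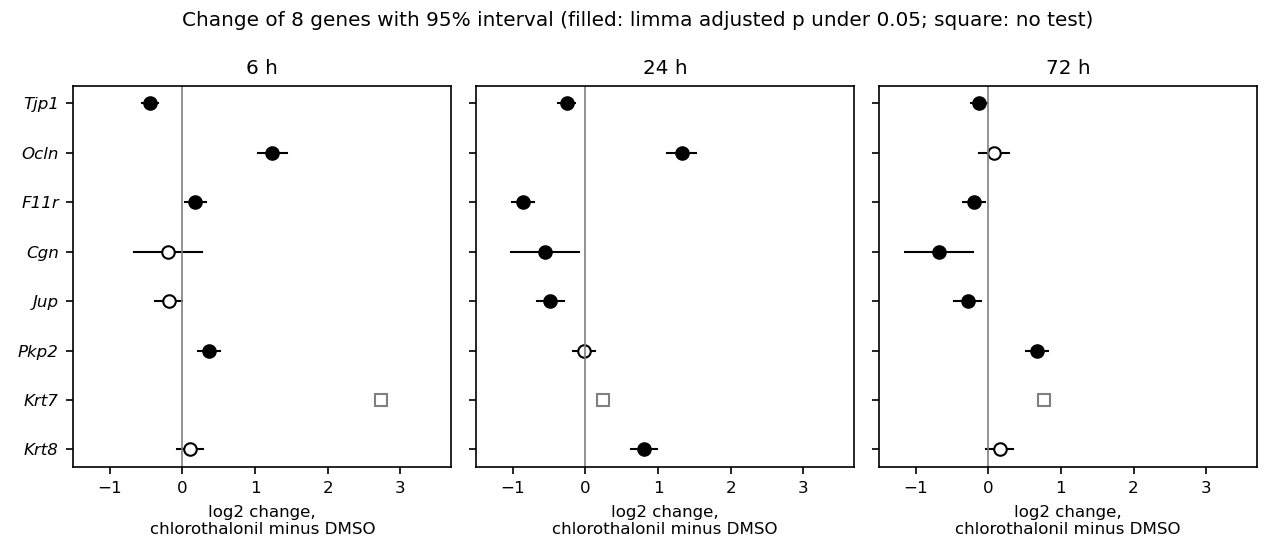
Log2 change, chlorothalonil minus DMSO (x axis), of the 8 junction and keratin genes (rows) at 6, 24 and 72 h, with the 95% interval from the fit over 18 arrays and filled points for an adjusted p under 0.05. The grey squares of Krt7 are the difference of group means with no test. Ocln is at 1.24 and 1.33 at 6 and 24 h and at 0.08 at 72 h.

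Occludin, a membrane protein of the tight junction, rose at both early times and not at 72 h. Ocln levels were log2 7.25, 7.20 and 6.95 in chlorothalonil arrays at 6 h, against 5.85, 5.89 and 5.95 in DMSO arrays. At 24 h they were 7.24, 7.29 and 7.5 in chlorothalonil arrays and 6.21, 5.91 and 5.92 in DMSO arrays. At 72 h they were 5.92, 5.90 and 5.86 in chlorothalonil arrays and 5.83, 5.87 and 5.74 in DMSO arrays. Every treated array lay above every DMSO array at 6 and 24 h, and the groups overlapped at 72 h. The log2 change was 1.24 ± 0.10 (SE) at 6 h, a 2.36-fold rise with adjusted p = 5.08e-08, and 1.33 ± 0.10 at 24 h, a 2.51-fold rise with adjusted p = 8.93e-09. At 72 h the change was 0.08 with a 95% interval of -0.12 to 0.28 (adjusted p = 0.487). The effect at 72 h was smaller than that at 24 h by a log2 difference of -1.25 (adjusted p = 1.89e-06) and than that at 6 h by -1.16 (adjusted p = 3.74e-06). Scaled to the poly-A controls the Ocln change kept its direction at 6 h (0.62, adjusted p = 0.107) and 24 h (0.25, adjusted p = 0.481) without passing, and turned to -0.59 at 72 h. Without DMSO replicate 1 of 24 h the scaled 24 h change was 0.76 (adjusted p = 0.00473). The differences of the 72 h effect from the 24 h and 6 h effects did not pass under that scaling (adjusted p = 0.223 and 0.0638). A second, dimmer Ocln probe set, below background in every array, differed by 0.74, 0.58 and 0.13 at the 3 times.

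JAM-A, an immunoglobulin-like adhesion protein of the tight junction, rose with time in both arms and was lower in the chlorothalonil arrays at 24 h. F11r levels were 9.99, 10.04 and 9.98 in chlorothalonil arrays at 6 h, against 9.83, 9.87 and 9.77 in DMSO arrays. Those of 24 h were 10.63, 10.91 and 10.79 in chlorothalonil arrays and 11.69, 11.60 and 11.62 in DMSO arrays. Those of 72 h were 11.64, 11.76 and 11.78 in chlorothalonil arrays and 11.98, 11.92 and 11.86 in DMSO arrays. The groups did not overlap at any time: the treated arrays were the higher ones at 6 h and the lower ones at 24 and 72 h. The 24 h change of -0.86 ± 0.07 (SE), 1.81-fold lower, had an adjusted p of 3.17e-08. The 6 h change of 0.18 (adjusted p = 0.0358) and the 72 h change of -0.19 (adjusted p = 0.0224) were small. The 6 h call was lost without chlorothalonil replicate 1, 2 or 3 or DMSO replicate 1 or 3 of that time (adjusted p = 0.0585 to 0.114) and with arrays centred on their medians (0.0963), and its direction turned to -0.44 under poly-A scaling. The 72 h call was lost without chlorothalonil replicate 1 or DMSO replicate 1 or 2 of that time (0.0518 to 0.0924) and with median centring (0.09). The effect differed between times, by -1.04 for 24 h minus 6 h (adjusted p = 4.66e-07), 0.66 for 72 h minus 24 h (3.89e-05) and -0.37 for 72 h minus 6 h (0.0041). Under poly-A scaling the first of these passed, and the other two had adjusted p = 0.1 and 0.684. By group mean the F11r order was DMSO 72 h, chlorothalonil 72 h, DMSO 24 h, chlorothalonil 24 h, chlorothalonil 6 h and DMSO 6 h, and of these neighbours only chlorothalonil 72 h and DMSO 24 h overlapped.

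Cingulin, the plaque protein that binds ZO-1 and actomyosin, was at background at 6 h and rose with time in both arms. Cgn levels were 3.41, 3.33 and 3.75 in chlorothalonil arrays at 6 h, against 3.69, 3.72 and 3.69 in DMSO arrays. The 24 h levels were 6.35, 6.28 and 6.36 in chlorothalonil arrays and 7.30, 7.21 and 6.17 in DMSO arrays. The 72 h levels were 8.24, 7.84 and 7.74 in chlorothalonil arrays and 8.56, 8.64 and 8.66 in DMSO arrays. The treated arrays were all lower at 72 h, while at 24 h DMSO replicate 3 lay below all 3 treated arrays and the groups overlapped. The change was -0.56 ± 0.22 (SE) at 24 h, 1.47-fold lower with adjusted p = 0.0339, and -0.68 ± 0.22 at 72 h, 1.60-fold lower with adjusted p = 0.0138. The 24 h call was lost without any one of the 3 treated arrays of that time or DMSO replicate 1 or 2 (adjusted p = 0.0607 to 0.176), and the change was -0.35 without DMSO replicate 1 and -0.92 without DMSO replicate 3. It was also lost with no filter on low values (0.0585) and with the 24 h arrays fitted alone (0.123), and the 72 h call was lost without chlorothalonil replicate 3 (0.0573). Under poly-A scaling the 6 h difference, with both groups at background, was -0.82 (adjusted p = 0.0335). Between 6 and 24 h Cgn rose at least 5.03-fold in the chlorothalonil arrays and at least 7.41-fold in the DMSO arrays.

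ZO-1, the scaffold that links occludin and claudins to actin, was slightly lower with chlorothalonil at every time. Tjp1 levels were 12.78, 12.68 and 12.69 in chlorothalonil arrays at 6 h, against 13.16, 13.17 and 13.15 in DMSO arrays. At 24 h they were 13.06, 13.14 and 13.09 in chlorothalonil arrays and 13.33, 13.38 and 13.37 in DMSO arrays. At 72 h they were 13.53, 13.65 and 13.71 in chlorothalonil arrays and 13.74, 13.74 and 13.79 in DMSO arrays. The treated arrays lay below all DMSO arrays at each time. The change was -0.44 ± 0.05 (SE) at 6 h (1.36-fold lower, adjusted p = 4.46e-06), -0.26 at 24 h (adjusted p = 0.000501) and -0.13 at 72 h (adjusted p = 0.0453). The difference of 0.31 between the 72 h and 6 h effects passed (adjusted p = 0.00231), but not under poly-A scaling (0.841). The 72 h call was lost in 13 of the 18 fits that left out 1 array (adjusted p = 0.0504 to 0.202), among them 5 of the 6 arrays of that time, chlorothalonil replicate 3 being the exception, and the change was -0.08 without chlorothalonil replicate 1. It was also lost with median centring (0.266), the 72 h arrays fitted alone (0.129), array weights (0.0765), the replicate number as a block (0.0587) and all probe sets tested (0.0552). A second, dimmer Tjp1 probe set differed the other way, by 1.08, 0.44 and 0.78 at the 3 times (adjusted p over all probe sets = 0.124, 0.512 and 0.253), so the direction for Tjp1 rests on the brighter probe set.

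Plakoglobin, shared by desmosomes and adherens junctions, was lower with chlorothalonil at the later times. Jup levels were 10.97, 11.03 and 10.98 in chlorothalonil arrays at 6 h, against 11.22, 11.07 and 11.26 in DMSO arrays. Those of 24 h were 11.39, 11.53 and 11.46 in chlorothalonil arrays and 12.03, 11.84 and 11.95 in DMSO arrays. Those of 72 h were 11.32, 11.56 and 11.52 in chlorothalonil arrays and 11.63, 11.70 and 11.92 in DMSO arrays. No treated array reached a DMSO array at any of the 3 times. The change was -0.19 (95% interval -0.37 to -0.01, adjusted p = 0.0694) at 6 h, -0.48 ± 0.09 (SE) at 24 h (1.40-fold lower, adjusted p = 0.000135) and -0.28 at 72 h (adjusted p = 0.00908). At 6 h the change passed without DMSO replicate 2 of that time (adjusted p = 0.0342) or DMSO replicate 3 of 72 h (0.0436), with quantile normalization (0.0326), median centring (0.0476), array weights (0.00906), a variance trend (0.0428) and poly-A scaling (-0.80, 0.0364). The 72 h call was lost without chlorothalonil replicate 1 (0.051) or DMSO replicate 3 (0.0563) of that time.

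Plakophilin 2, the armadillo protein of the desmosomal plaque, was higher with chlorothalonil at 6 and 72 h. Pkp2 levels were 10.42, 10.13 and 10.16 in chlorothalonil arrays at 6 h, against 9.82, 9.90 and 9.89 in DMSO arrays. The 24 h levels were 10.48, 10.47 and 10.42 in chlorothalonil arrays and 10.41, 10.53 and 10.47 in DMSO arrays. The 72 h levels were 10.32, 10.32 and 10.28 in chlorothalonil arrays and 9.74, 9.60 and 9.58 in DMSO arrays. The groups were apart at 6 and 72 h and overlapped at 24 h. The change was 0.36 ± 0.07 (SE) at 6 h (1.29-fold higher, adjusted p = 0.00044), -0.02 (95% interval -0.17 to 0.13) at 24 h and 0.67 ± 0.07 at 72 h (1.59-fold higher, adjusted p = 1.13e-06). The effect at 72 h exceeded that at 24 h by 0.69 (adjusted p = 3.92e-05). In DMSO arrays Pkp2 averaged 9.87, 10.47 and 9.64 at 6, 24 and 72 h, and in chlorothalonil arrays 10.23, 10.45 and 10.31, so the decline after 24 h that passed in DMSO arrays (-0.83, adjusted p = 1.37e-07) measured -0.15 (adjusted p = 0.0762) in treated arrays. Poly-A scaling turned the 6 h change to -0.25 and the 72 h change to -0.00, and gave -1.09 at 24 h (adjusted p = 0.00177), or -0.72 (0.0076) without DMSO replicate 1 of that time. The difference between the 72 h and 24 h effects did not pass under it (0.0922).

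Keratin 7, a type II keratin of simple and ductal epithelia, stood high in the treated arrays of 6 h. Krt7 levels were 6.48, 6.60 and 6.32 in chlorothalonil arrays at 6 h, against 4.10, 3.65 and 3.45 in DMSO arrays, of which 1 lay above background. At 24 h they were 3.81, 3.32 and 3.41 in chlorothalonil arrays and 3.29, 3.10 and 3.42 in DMSO arrays. At 72 h they were 3.48, 3.80 and 3.31 in chlorothalonil arrays and 2.80, 2.98 and 2.51 in DMSO arrays. Only the 3 treated arrays of 6 h stood clearly off the background, and 4 of 18 arrays were above it in all, so Krt7 passed the filter on low values through the group where it was high and is described without a test. With the 2 DMSO arrays at background set to log2 4, Krt7 was at least 5.40-fold higher in chlorothalonil arrays at 6 h (mean 6.47, against 3.73 in DMSO arrays). At 72 h the treated values were again all above the DMSO values, but both groups were at background, as they were at 24 h, so no fold is given at these times.

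Keratin 8, the type II keratin that pairs with keratin 18, was higher with chlorothalonil at 24 h and fell between 24 and 72 h in both arms. Krt8 levels were 14.32, 14.38 and 14.30 in chlorothalonil arrays at 6 h, against 14.26, 14.11 and 14.33 in DMSO arrays. Those of 24 h were 14.35, 14.45 and 14.24 in chlorothalonil arrays and 13.48, 13.64 and 13.51 in DMSO arrays. Those of 72 h were 12.77, 12.97 and 13.05 in chlorothalonil arrays and 12.70, 12.86 and 12.77 in DMSO arrays. The treated arrays were apart from the DMSO arrays at 24 h and overlapped them at 6 and 72 h. The change was 0.10 (95% interval -0.08 to 0.28) at 6 h, 0.81 ± 0.08 (SE) at 24 h (1.75-fold higher, adjusted p = 5.52e-07) and 0.15 (-0.02 to 0.33, adjusted p = 0.12) at 72 h. The 24 h effect exceeded the 6 h effect by 0.70 (adjusted p = 0.000116) and the 72 h effect differed from the 24 h effect by -0.65 (adjusted p = 0.000273), and neither difference passed under poly-A scaling (0.797 and 0.777). Under poly-A scaling the 24 h change was -0.27 (0.11, adjusted p = 0.718, without DMSO replicate 1 of that time) and the 6 and 72 h changes were -0.51 and -0.52, so the higher level of Krt8 holds relative to the other genes on the array. The 72 h change passed without chlorothalonil replicate 1 of that time (adjusted p = 0.0244), with median centring (0.20, adjusted p = 0.039) and with array weights (0.19, adjusted p = 0.0203). From 6 to 24 h Krt8 fell by 0.69 in DMSO arrays (adjusted p = 2.49e-06, and 0.254 under poly-A scaling) and moved by 0.02 (95% interval -0.16 to 0.20) in chlorothalonil arrays, and from 24 to 72 h it fell by 0.77 and by 1.42 in the same order of arms.

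Sprr1a, for which no test is given, was above background only in the treated arrays of 24 and 72 h. Its levels were 2.58, 3.4 and 1.98 in chlorothalonil arrays at 6 h, against 1.92, 1.95 and 1.92 in DMSO arrays, all at background. The 24 h levels were 9.67, 9.86 and 9.39 in chlorothalonil arrays and 1.93, 1.95 and 2.0 in DMSO arrays. The 72 h levels were 6.46, 6.98 and 7.43 in chlorothalonil arrays and 1.93, 1.92 and 1.95 in DMSO arrays. All 9 DMSO arrays lay between 1.92 and 2.0, and the 6 treated arrays of the later times are the 6 of 18 above background. Measured against log2 4, Sprr1a was at least 49.9-fold higher in chlorothalonil arrays at 24 h and at least 7.76-fold higher at 72 h. Within the treated arm the 72 h mean lay 2.68 below the 24 h mean.

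Squamous genes that lie beside Sprr1a in the rat genome were at background. Sprr1b and Sprr3 on one side and Ivl (involucrin) near the other had a highest value over the 18 arrays of 2.73, 2.07 and 3.13. Likewise Krt18, the filament partner of keratin 8 and its direct neighbour, never exceeded 3.0, Krt19 never exceeded 2.55 and Dsp (desmoplakin) never exceeded 1.96, so no partner of Krt8 or Pkp2 in these roles was detected by its probe set.

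The promoter sequences are shown for Sprr1a, F11r and Cgn, whose windows hold a searched motif. They are the 250 bases before the annotated start, from RefSeq on GRCr8, 5′ to 3′ on the gene's strand, for 7 of the 9 genes that the promoter table holds. The motifs searched on both strands were TGANTCA, bound by AP-1 factors, and AACNNGTT, bound by grainyhead-like factors of epithelia; each is its own reverse complement in this form and the capitals mark a match.
Sprr1a: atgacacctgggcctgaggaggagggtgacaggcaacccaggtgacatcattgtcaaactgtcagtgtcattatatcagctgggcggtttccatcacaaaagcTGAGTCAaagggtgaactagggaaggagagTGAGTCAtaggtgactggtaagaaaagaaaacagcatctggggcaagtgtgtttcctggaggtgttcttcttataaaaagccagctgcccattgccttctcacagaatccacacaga
F11r: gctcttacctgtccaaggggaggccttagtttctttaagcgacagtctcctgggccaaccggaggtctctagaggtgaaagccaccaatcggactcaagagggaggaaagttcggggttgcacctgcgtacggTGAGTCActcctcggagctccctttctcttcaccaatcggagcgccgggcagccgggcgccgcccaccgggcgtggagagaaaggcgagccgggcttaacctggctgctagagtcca
Cgn: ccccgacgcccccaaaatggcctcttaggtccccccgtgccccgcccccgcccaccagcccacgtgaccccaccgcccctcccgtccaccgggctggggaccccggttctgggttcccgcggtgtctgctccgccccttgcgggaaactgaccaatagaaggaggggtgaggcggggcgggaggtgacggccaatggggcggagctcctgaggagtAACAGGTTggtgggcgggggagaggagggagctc
The Sprr1a window is chr2:180752626-180752875 on the minus strand, with TGANTCA matches that begin 147 and 117 bases before the start. The F11r window is chr13:86405979-86406228 on the plus strand, with 1 TGANTCA match that begins 117 bases before the start. The Cgn window is chr2:185023636-185023885 on the minus strand, with 1 AACNNGTT match that begins 34 bases before the start. Of all 33469 promoter windows of this length, 6.34% hold TGANTCA at least once, 0.311% hold it at least 2 times and 3.60% hold AACNNGTT. The Tjp1 window, not printed here, also holds AACNNGTT, beginning 146 bases before the start, and the Ocln, Jup and Krt8 windows hold neither. A match describes letters in a window only.

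Over time alone, in DMSO arrays, 7 of the 8 genes passed from 6 to 24 h (Tjp1, F11r, Cgn, Jup and Pkp2 higher, Krt7 and Krt8 lower), 87.5% against 72.9% of all genes. From 24 to 72 h 6 of 8 passed in DMSO arrays (Tjp1, F11r and Cgn higher, Pkp2, Krt7 and Krt8 lower), against 60.7% of all genes. In chlorothalonil arrays 6 of 8 passed from 6 to 24 h (Tjp1, F11r, Cgn, Jup and Pkp2 higher, Krt7 lower) against 59.5% of all genes, and 5 of 8 from 24 to 72 h (Tjp1, F11r and Cgn higher, Ocln and Krt8 lower) against 72.9%. Without Krt7, which is at or near background in these groups apart from the treated arrays of 6 h, the counts were 6, 5, 5 and 5 of 7. Under poly-A scaling 4 and 3 of 8 passed in DMSO arrays and 2 of 8 from 6 to 24 h in chlorothalonil arrays, where 33.2%, 15.2% and 16.4% of all genes passed. F11r rose 3.51-fold from 6 to 24 h in DMSO arrays (log2 1.81 ± 0.07 SE) and 1.71-fold in chlorothalonil arrays (0.77 ± 0.07, adjusted p = 0.321 under poly-A scaling). Ocln fell 2.74-fold from 24 to 72 h in chlorothalonil arrays (adjusted p = 3.45e-09), and in DMSO arrays it measured -0.20 (adjusted p = 0.077). The effect of treatment differed between 24 and 6 h for 6 of 8 genes (63.0% of all genes), between 72 and 24 h for 4 of 8 (57.6%) and between 72 and 6 h for 5 of 8 (59.0%), or for 5, 4 and 4 of 7 without Krt7. Over the 18 arrays F11r and Cgn correlated at r = 0.96, and Tjp1 and Krt8 at r = -0.90. These correlations are descriptive, since the arrays share the time course and the treatment.

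Other genes of the same structures moved in both directions. Over all genes tested, 27.8% were higher and 31.8% lower at 6 h, 39.1% and 31.1% at 24 h and 37.2% and 27.0% at 72 h. Of 24 other tight junction genes tested, 7 were higher and 8 lower at 6 h, 5 higher and 13 lower at 24 h and 4 higher and 9 lower at 72 h, with medians of -0.06, -0.39 and -0.14. At 24 h that is 20.8% higher and 54.2% lower, and 75% called in all against 70.1% of all genes. These figures include Cldn11 (1.08 at 24 h), which was above background in 6 of 18 arrays, all of them chlorothalonil arrays of 6 and 24 h. Cldn11 passed the filter through the groups where it was high. Its part in the counts, shares and medians of these times is not read as a test. At 24 h the scaffold gene Mpdz (MUPP1) was at log2 10.31 in chlorothalonil arrays and 11.30 in DMSO arrays (-0.98 ± 0.07 SE, adjusted p = 1.25e-08), and Magi3, a membrane-associated scaffold, at 12.01 and 13.20 (-1.19, adjusted p = 1.44e-08). Magi1 was at 10.18 in chlorothalonil arrays and 11.03 in DMSO arrays (-0.85, adjusted p = 2.21e-07), and Amotl1, an angiomotin that binds ZO-1-type scaffolds, at 9.79 and 10.43 (-0.64, adjusted p = 1.08e-07). Of 16 adherens junction genes, 7 were higher and 4 lower at 6 h, 3 higher and 9 lower at 24 h and 4 higher and 6 lower at 72 h, with medians of 0.13, -0.35 and -0.22, the 24 h shares being 18.8% and 56.2%. Cdh3 (P-cadherin) was at 10.55 in chlorothalonil arrays and 11.31 in DMSO arrays at 24 h (-0.77, adjusted p = 4.12e-06), Nectin3 at 11.19 and 11.63 (-0.43, adjusted p = 8.41e-06) and Lima1, an actin-binding protein, at 12.99 and 13.44 (-0.45, adjusted p = 2.28e-05). Epb41l5, a FERM protein, rose in the same comparison (1.86, at least 1.96-fold, adjusted p = 5.61e-06). Ctnnb1 (beta-catenin) measured -0.13 (adjusted p = 0.0782) at 6 h, -0.25 (0.00197) at 24 h and -0.38 (5.93e-05) at 72 h. Under poly-A scaling the tight junction list had 0 higher and 21 lower genes at 24 h, where 2.80% of all genes were higher and 68.5% lower, and at 6 h the adherens median turned to -0.48.

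Few desmosome and gap junction genes were detected. Of those with a probe set, 9 of 11 other desmosome genes and 8 of 11 gap junction genes were never above background. Of 2 other desmosome genes tested, Ppl (periplakin, which ties the plaque to keratin) was lower at 24 h (-1.68, 3.21-fold, adjusted p = 0.000367) and at 72 h (-2.47, 5.54-fold, adjusted p = 1.28e-05), and Pkp4 was higher at 72 h (1.0, adjusted p = 0.000888). Of 3 gap junction genes, Gja1 (connexin 43) was higher at 6 h (0.95, adjusted p = 1.04e-08) and lower at 24 h (-0.34, 0.000202) and 72 h (-0.59, 1.11e-06). Gjc1 (connexin 45) was lower at all 3 times (-0.81, -0.96 and -0.40), and Panx1 was higher at 72 h (0.79, adjusted p = 0.00304). Of 2 other keratins, Krt17 was 0.94 higher at 6 h, the time at which Krt7 was high. Krt17 was above background in 5 of 18 arrays, all of them at 6 h. It passed the filter through that time and is given without a p-value. Krt10, a keratin of differentiating squamous cells, was higher at 24 h (2.40, 5.29-fold, adjusted p = 9.69e-08) and at 72 h (1.02, adjusted p = 0.000694), as Sprr1a was. The remaining 15 of 17 keratins with a probe set were never above background. Spint2, a protease inhibitor and the only epithelial identity gene tested, was higher at 6 h (0.54, adjusted p = 8.43e-05) and lower at 24 h (-0.55, adjusted p = 4.7e-05).

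Among 9 other cornified envelope and squamous genes tested, 3 were higher and 0 lower at 6 h, 5 higher and 2 lower at 24 h and 4 higher and 1 lower at 72 h, with medians of 0.04, 0.28 and 0.32. The share called was 33.3%, 77.8% and 55.6%, against 59.6%, 70.1% and 64.3% of all genes. Serpinb2, a serine protease inhibitor, averaged 8.81 in chlorothalonil arrays and 2.38 in DMSO arrays at 24 h, at least 28.0-fold higher (adjusted p = 8.66e-15). Klf4, a transcription factor of barrier epithelia, averaged 10.29 in chlorothalonil arrays and 6.98 in DMSO arrays at 24 h (9.90-fold, adjusted p = 9.56e-10), after a rise of 2.52 at 6 h, and was still 2.18 higher at 72 h. S100a10 and S100a11, calcium-binding proteins, changed by 0.42 (adjusted p = 1.4e-05) and 0.28 (0.00262) at 24 h. The other 17 of 26 genes of this list with a probe set were never above background. Of 15 mesenchymal transition genes, 7 were higher and 1 lower at 6 h, 7 higher and 3 lower at 24 h and 10 higher and 0 lower at 72 h, with medians of 0.17, 0.25 and 0.56. The share called was 53.3%, 66.7% and 66.7%, and the share higher 46.7%, 46.7% and 66.7% against 27.8%, 39.1% and 37.2% of all genes. These figures include Cnn1, which was above background in 3 of 18 arrays, all of them chlorothalonil arrays of 72 h. Cnn1 passed the filter through the group where it was high. Its part in the 72 h count, shares and median is not read as a test. Cd44, the hyaluronan receptor, rose at all 3 times (0.85, 1.77 and 3.90, the last 15.0-fold with adjusted p = 8.01e-12), and Acta2 (smooth muscle actin) by 0.74, 0.93 and 0.80. Tagln, an actin-binding protein, rose by 0.74 at 24 h and 1.12 at 72 h, S100a4 by 0.48 at 6 h and 0.37 at 24 h, and Vim (vimentin) by 0.41 at 72 h (adjusted p = 2.1e-05). At 24 h the changes of Twist1 (-0.37), Cdh2 (-0.35), Zeb1 (-0.25), Itgb1 (-0.17) and Vim (-0.10) were negative, and those of the other tested genes of the list were positive. Under poly-A scaling the medians of both lists were negative at all 3 times, with 2 squamous and 1 mesenchymal gene higher at 24 h. That scaling subtracts 1 constant per comparison, and it turns the rises given here for Spint2 and S100a4 at 6 h, for S100a10, S100a11, Acta2, Tagln and S100a4 at 24 h and for Vim at 72 h. Without DMSO replicate 1 of 24 h, Acta2 and Tagln were at 0.14 and 0.05 in the scaled 24 h comparison and did not turn (adjusted p = 0.586 and 0.877), while S100a10, S100a11 and S100a4 did. Some rises that kept their sign did not pass under poly-A scaling with all arrays. They were those of Gja1, Cd44 and Acta2 at 6 h and of Panx1, Pkp4 and Krt10 at 72 h. Of the mesenchymal genes, 2 were called higher at 72 h under that scaling.

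**Figure D3:**
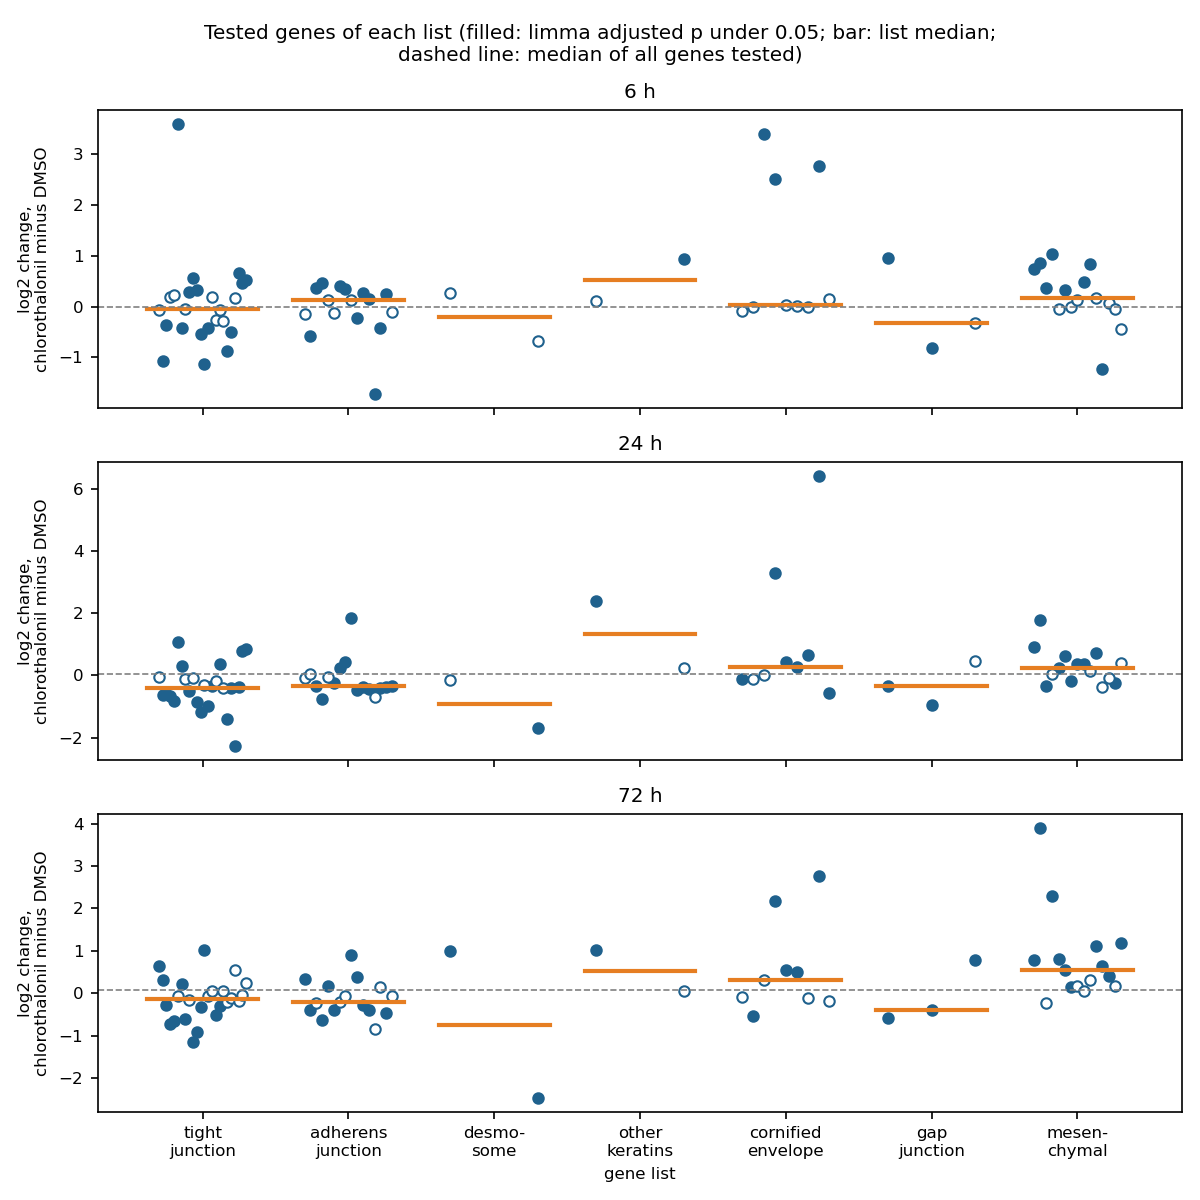
Log2 change, chlorothalonil minus DMSO (y axis), of every tested gene of 7 lists (x axis) at 6, 24 and 72 h, with filled points for an adjusted p under 0.05, orange bars for list medians and a dashed line for the median of all genes. The tight and adherens junction medians lie at -0.39 and -0.35 at 24 h, and the mesenchymal median at 0.56 at 72 h. Among the other keratins, Krt17 passed the filter only through the 6 h arrays, and its fill is not read as a test. Cldn11 (tight junction) passed it only through chlorothalonil arrays of 6 and 24 h, and Cnn1 (mesenchymal) only through those of 72 h. Their fills are not read as tests either.

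The genes whose levels tracked each member most closely were taken as the 3 highest Pearson correlations over the 18 arrays among tested genes that are not members; the correlations describe arrays that share a time course and treatment. Sprr1a was followed by Mmp10 and Mmp12, matrix metalloproteinases, and Mogat1, an acyltransferase (each r = 0.98), which averaged 6.40, 7.22 and 6.03 in chlorothalonil arrays at 24 h and 2.34, 2.15 and 2.79 in DMSO arrays. Krt7 was followed by Herpud1, an endoplasmic reticulum stress gene (r = 0.98), Spdya (0.96) and Ripk4 (0.95), all highest in the treated arrays of 6 h. Ocln was followed by Hist4h4, a histone (0.98), Ccl2, a chemokine (0.98), and Banp (0.97). Ccl2 averaged 8.0 in chlorothalonil arrays and 2.62 in DMSO arrays at 6 h, 7.63 and 2.52 at 24 h and 2.70 and 2.47 at 72 h, which is the time pattern of the Ocln effect. F11r was followed by Tcea3, Tmtc1 and Rnase4 (each r = 0.99) and Cgn by Acad11, Parp16 (each 0.99) and Ech1 (0.98), the first and last of which encode enzymes of fatty acid oxidation. Tjp1 was followed by Maml2, Pcm1 and Btbd6 (each 0.99), Jup by Egfr (0.97), Ivd and Armcx2 (each 0.96), Pkp2 by Clec2d (0.96), Blvrb (0.95) and Spata33 (0.93), and Krt8 by the translation factor Eif4a1 (0.99), Gss (0.99) and Rexo2 (0.98).

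**Figure D4:**
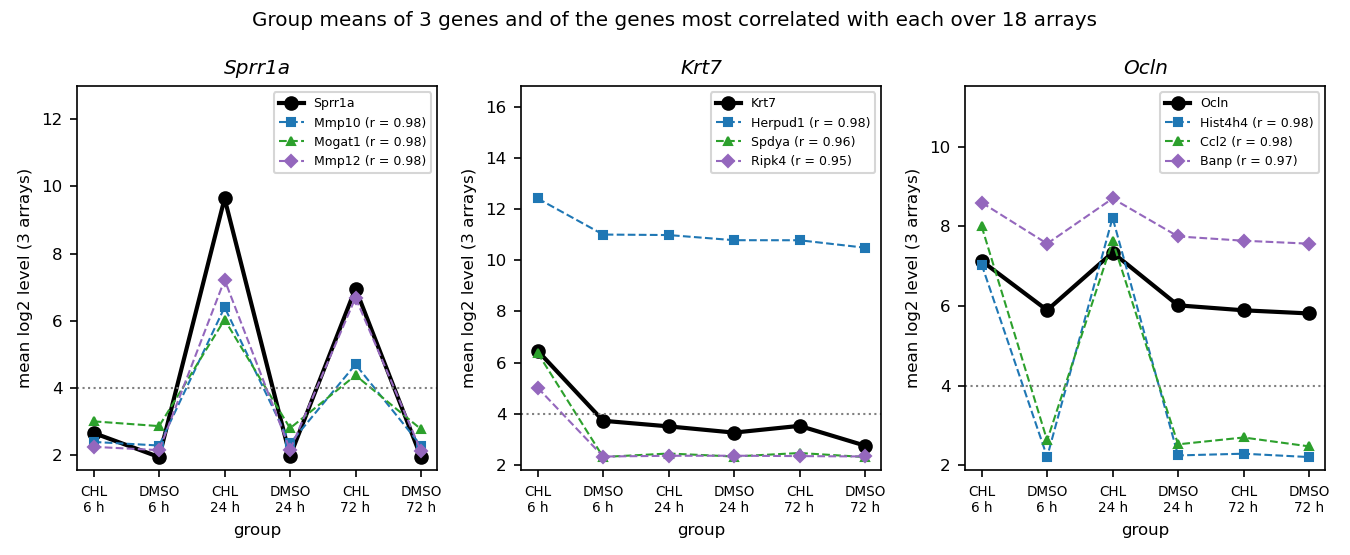
Mean log2 level over 3 arrays (y axis) in each group (x axis, CHL for chlorothalonil) of Sprr1a, Krt7 and Ocln, in black, and of the 3 genes most correlated with each, in colour, with the background of log2 4 dotted. The genes drawn with Sprr1a leave the background in the chlorothalonil arrays of 24 and 72 h, and those with Krt7 are highest in the chlorothalonil arrays of 6 h.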

How the data were processed

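Total RNA of 18 NRK-52E cultures was hybridised to Affymetrix rat arrays. The submitters' processing notes name GCRMA as the source of the deposited log2 values and state neither its version nor its settings. GCRMA corrects background from probe sequence and normalizes arrays to one distribution, which cannot show a change shared by most genes. Array number limits the precision. Of 31099 probe sets, 20832 have 1 symbol, 436 several and 9831 none; 20764 were matched by Entrez ID to RefSeq GRCr8 names. Probe sets above log2 4 in at least 3 of 18 arrays were kept, the brightest per gene, which left 9149 genes. limma 3.58.1 in R 4.3.3 fitted 1 mean per group over all 18 arrays, with two-sided contrasts, Benjamini-Hochberg over all 9149 genes and a threshold of 0.05; it was tested on simulated data. Figures used matplotlib 3.10.9 in Python 3.11.15.

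Members and gene lists were chosen with earlier results of these data known. Named genes are all members, the 4 genes with the smallest p of each list at its time with most calls, fixed partner genes, the 3 genes most correlated with each member, and markers or genome neighbours at background. The detected tubule and collecting duct markers and the mesenchymal genes with negative changes at 24 h are named as well. So are Cldn11 and Cnn1, which passed the filter only through chlorothalonil groups. Alternatives covered filters, scaling, the replicate number as a block, array weights, a variance trend, single-time fits, all probe sets and leaving out each array.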

Additional observations from a re-analysis of the deposited data

Results flagged for a closer look

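The effect of chlorothalonil on 7 junction and keratin genes was compared between times, leaving out Krt7, which passed the filter on low values through the group where it was high, and 13 differences passed an adjusted p of 0.05 in the limma fit. They come from 5, 4 and 4 genes in the 3 pairs of times, where 63.0%, 57.6% and 59.0% of all genes passed. Each value is a difference of log2 changes, later effect minus earlier effect. For Ocln it was -1.25 (72 h minus 24 h, adjusted p = 1.89e-06) and -1.16 (72 h minus 6 h, 3.74e-06). For F11r it was -1.04 (24 h minus 6 h, 4.66e-07), 0.66 (72 h minus 24 h, 3.89e-05) and -0.37 (72 h minus 6 h, 0.0041). For Pkp2 it was -0.38 (24 h minus 6 h, 0.00389), 0.69 (72 h minus 24 h, 3.92e-05) and 0.30 (72 h minus 6 h, 0.0181), the last lost without chlorothalonil replicate 2 of 6 h (0.0532). For Krt8 it was 0.70 (24 h minus 6 h, 0.000116) and -0.65 (72 h minus 24 h, 0.000273). For Tjp1 it was 0.19 (24 h minus 6 h, 0.0434) and 0.31 (72 h minus 6 h, 0.00231), and for Jup -0.29 (24 h minus 6 h, 0.0482). The Tjp1 difference between 24 and 6 h was lost in 13 of 18 fits that left out 1 array (adjusted p up to 0.0958), and the Jup difference in 12 of 18 (up to 0.116). With the arrays scaled to the poly-A controls, only the F11r difference between 24 and 6 h passed among these 13, where 16.3%, 16.1% and 12.4% of all genes passed in the 3 pairs of times.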

How the results depend on the processing

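Of 2184 values of the 8 junction and keratin genes under alternatives, 2010 kept their direction and side of the threshold, 107 lost the call, 32 gained it and 35 changed sign. Many alternatives cannot move the log2 change, such as leaving out an array of a group not compared, a variance trend or a single-time fit. The tally is therefore no measure of how firm the directions are. Scaling to the poly-A controls moved most: the other gene lists had 24 calls at 6 h (40 as deposited), all genes had 3776 calls at 72 h (5881), and the share of higher among called genes was 6.07%, 3.93% and 8.26% at 6, 24 and 72 h (46.7%, 55.7% and 57.9% as deposited). Counts over the 8 genes were then 2, 0 and 1 for the effect differences of 24 minus 6 h, 72 minus 24 h and 72 minus 6 h (16.3%, 16.1% and 12.4% of all genes in the limma fit; 2, 3 and 2 of the 8 at an unadjusted p under 0.05), 4 and 3 for the DMSO arrays from 6 to 24 h and 24 to 72 h (33.2% and 15.2% of all genes), and 2 for the chlorothalonil arrays from 6 to 24 h (16.4%). Sign changes under that scaling at 6 h were F11r -0.44, Pkp2 -0.25 and Krt8 -0.51, at 24 h Krt7 -0.83 and Krt8 -0.27, and at 72 h Ocln -0.59, Pkp2 -0.0043 and Krt8 -0.52. For effect differences they were Tjp1 -0.27 and Ocln -0.37 (24 minus 6 h), Cgn 0.28 (72 minus 24 h) and Krt8 -0.0021 (72 minus 6 h). For the chlorothalonil arrays they were Ocln -0.054, Pkp2 -0.046 and Krt8 -0.25 from 6 to 24 h and Pkp2 0.033 from 24 to 72 h. Median centring gave Pkp2 0.050 at 24 h, Ocln -0.045 in DMSO arrays and Krt8 -0.052 in chlorothalonil arrays from 6 to 24 h, and Jup -0.022 and Krt7 -0.0092 in chlorothalonil arrays from 24 to 72 h. Quantile normalization gave Ocln -0.0068 in DMSO arrays from 6 to 24 h, and array weights gave Jup 0.027 for the effect difference of 72 minus 6 h. With DMSO replicate 1 of 24 h left out of the scaled fit, a setting added after seeing the data, Krt7 was at -0.41 at 24 h and the share of higher among called genes was 12.2%. None of these sign changes was called, apart from Krt7 at 24 h with all arrays scaled. Both Krt7 groups were at background at that time, so that call reads background values shifted by the scaling and is not taken as a result. The cause was not tested.

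Leaving out 1 array at a time gave 4 to 6, 5 to 6 and 4 to 6 called genes at 6, 24 and 72 h. Values that changed sign ranged over -0.0017 to 0.19 (Ocln effect, 24 minus 6 h), -0.050 to 0.011 (Pkp2 at 24 h), -0.32 to 0.24 (Cgn effect, 72 minus 24 h), -0.0074 to 0.13 (Krt8 effect, 72 minus 6 h), -0.036 to 0.070 (Krt8), -0.037 to 0.081 (Jup) and -0.12 to 0.17 (Krt7), the last 3 in chlorothalonil arrays.

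Replicate numbers did not pair the arrays: deviations of same-numbered arrays correlated at -0.04 to 0.30, above 0.1 in 3 of 9 pairs, and 8 of 18 arrays correlated best with their own number. With the replicate number as a block, Tjp1 at 72 h had an adjusted p of 0.0587, and the 24 minus 6 h effect differences of Tjp1 and Jup 0.0566 and 0.0514. Signal near background limits Krt7, Sprr1a and Cgn, and 3 arrays a group limit small changes.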
